A study of Mus musculus with 16 samples.

Results

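The 10 genes Syn1, Syn2, Sv2a, Sv2b, Syp, Slc17a6, Syt1, Snap25, Stx1a and Vamp2 encode core parts of the synaptic vesicle and of the machinery that fuses it with the terminal membrane. They were chosen by name, and each was found as exactly 1 row among the 22206 probe sets tested, so all 10 of 10 were measured. Their RNA was followed in 16 array libraries of cells sorted by fluorescence from dissociated olfactory mucosa of S100a5-tauGFP reporter mice, strain C57BL/6 in the labels. The groups were filtered air (vehicle) titled GFP-, filtered air titled GFP+, isoamyl acetate titled GFP- and isoamyl acetate titled GFP+, with 4 libraries each. Every library came from 3 mice, 24 mice of both sexes in all, 7 to 12 weeks old, kept singly for 40 hours in chambers with a clean air flow of 3.1 L per minute. From hour 26 on they received pulses of 10 seconds every 20 minutes of either filtered air or isoamyl acetate, an ester with a banana smell. Since 24 mice in pools of 3 make 8 pools for 16 libraries, the titled GFP+ and GFP- libraries of an agent and number are read as sorts of the same 3 mice, and replicates within a group as separate pools. The reporter marks cells through the S100a5 gene, which is active in olfactory sensory neurons, and a sorted fraction also holds other cells of the mucosa.

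A synaptic vesicle is filled with transmitter, tethered near the membrane, primed by SNARE proteins and released when calcium enters the terminal, after which its membrane is retrieved. Olfactory sensory neurons send 1 unbranched axon to a glomerulus of the olfactory bulb, where they release glutamate. Their vesicle proteins are made from RNA in the cell body in the nasal epithelium, which is the part of the cell that a dissociated preparation retains. The synapsins coat vesicles and hold them in clusters, the SV2 proteins and synaptophysin span the vesicle membrane, Slc17a6 (VGLUT2) loads glutamate, Syt1 senses calcium, and Vamp2, Snap25 and Stx1a form the SNARE complex.

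Title and cell type field name opposite GFP signs in all 16 samples, so the labels do not settle which sort is which. S100a5 itself was lower in the library titled GFP+ in 8 of 8 pools, with a difference of -1.22 on the log2 scale (SE 0.15, limma with Benjamini-Hochberg adjusted p = 4.17e-06). S100a5 was thus higher in the sort that the cell type field, and not the title, names GFP+. Libraries are called by their titles here, and a sort difference is the signal titled GFP+ less that titled GFP-. Which of the sorts held the fluorescent cells was not tested. All signals below are log2 values, on which a difference of 1 is a doubling.

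Promoter sequence is shown for the 3 genes with the largest sort differences, namely Syn1, Syn2 and Sv2b. The stretches are the 250 bases before the first annotated start listed for each gene, 5′ to 3′ on the gene's strand. They come from RefSeq on build GRCm38.p6, and capitals mark motif matches. They lie at chrX:20920919-20921168 on the minus strand for Syn1, chr6:115134652-115134901 on the plus strand for Syn2 and chr7:75309263-75309512 on the minus strand for Sv2b.
Syn1: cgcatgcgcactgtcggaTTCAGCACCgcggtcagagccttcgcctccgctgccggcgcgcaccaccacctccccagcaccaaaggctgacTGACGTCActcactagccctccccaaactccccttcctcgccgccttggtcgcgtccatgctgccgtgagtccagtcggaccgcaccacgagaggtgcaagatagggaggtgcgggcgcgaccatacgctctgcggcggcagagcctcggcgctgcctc
Syn2: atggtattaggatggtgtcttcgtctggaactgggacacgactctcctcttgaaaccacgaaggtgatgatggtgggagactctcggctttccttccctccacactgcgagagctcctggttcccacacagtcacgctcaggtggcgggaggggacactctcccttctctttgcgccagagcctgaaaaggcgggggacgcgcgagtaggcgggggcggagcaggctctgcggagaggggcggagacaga
Sv2b: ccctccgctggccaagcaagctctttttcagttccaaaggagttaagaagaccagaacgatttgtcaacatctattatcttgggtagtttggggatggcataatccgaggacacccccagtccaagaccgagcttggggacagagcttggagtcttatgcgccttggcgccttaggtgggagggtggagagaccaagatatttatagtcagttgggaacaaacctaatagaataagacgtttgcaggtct

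RefSeq windows of 300 bases, ending 50 bases past the start, were matched for 8 of the 10 genes, Snap25 and Vamp2 being without one, and gave 14 windows because some genes have several starts. Searched on both strands, the cyclic AMP response element TGACGTCA occurred in 1 of the 14, that of Syn1, at 159 to 152 bases before the start, and in 1.79% of all 32851 windows. The Syn1 stretch also holds TTCAGCACC, the first part of the element bound by the neuronal silencer REST, at 232 to 224 bases before the start, which 0.371% of all windows hold. That part was searched after the longer REST element had no match in these 14 windows, against 5 of all 32851. The motif of the olfactory EBF factors was in 0 of 14 and in 0.904% of all windows. The palindrome CACGTG was in 1 window, at another start of Sv2b not printed here (7.15% of all windows), and the GC box GGGGCGGGG in 3, those of Sv2a, Stx1a and Syp (11.4% of all). The short REST letters open the longer element, so these searches overlap. A match describes letters only.

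All 10 genes were above the median negative control probe set in 16 of 16 libraries, and most were bright. Their mean signals lay between the 70.6 percentile of the tested probe sets for Stx1a, at 9.72, and the 99.8 percentile for Syp, at 17.58, where the highest signal of any probe set was 19.33. A signal depends on its probes, so these percentiles do not order the transcripts by abundance. Omp, the olfactory marker protein of mature olfactory neurons, stood at 18.45 and 18.28 in filtered air titled GFP- and GFP+, and at 18.43 and 18.22 with isoamyl acetate, close to the highest signal in both sorts.

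**Figure D1:**
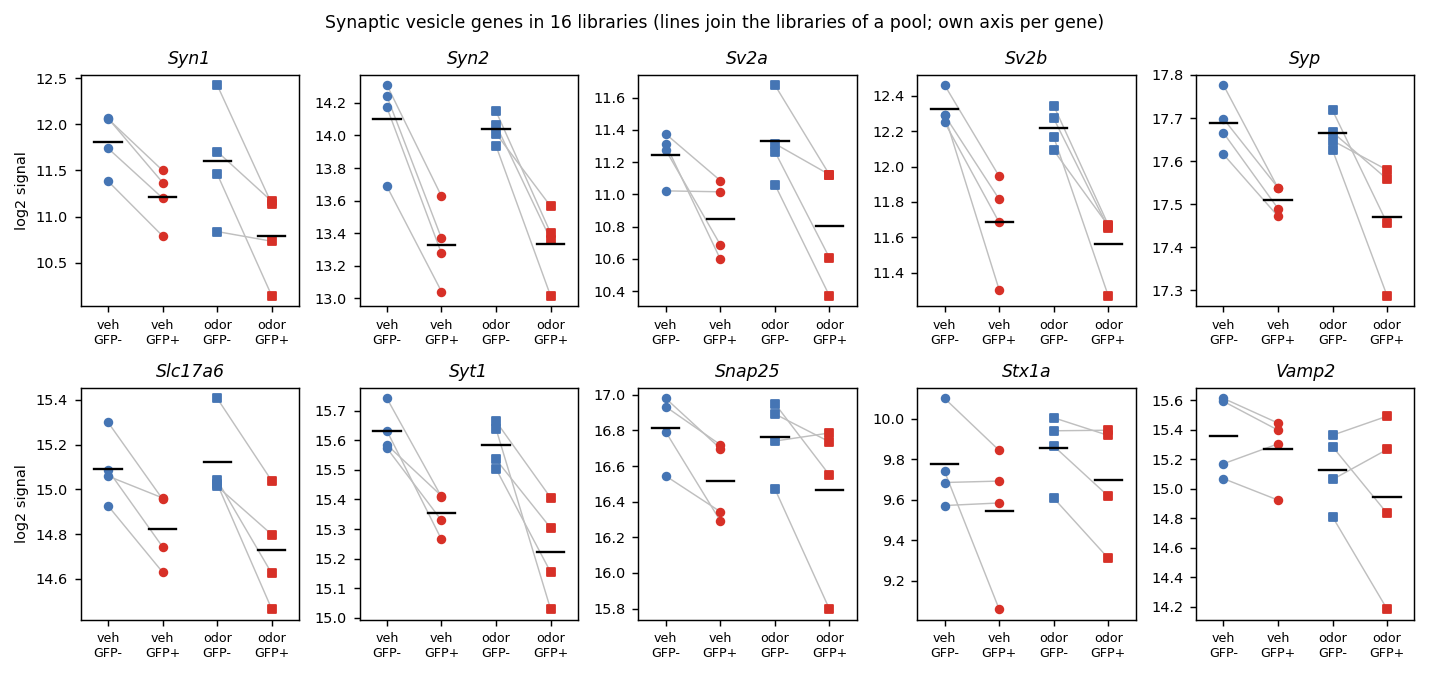
Log2 signal of each of the 10 genes in the 16 libraries, with filtered air as circles and isoamyl acetate as squares, titled GFP- in blue and titled GFP+ in red, black bars for group means and grey lines joining the libraries of a pool. Each gene has its own axis, and as deposited for Syn2, Sv2b, Syt1 and Syp all 8 libraries titled GFP+ lie below all 8 titled GFP-.

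Over all 8 pools, most of the vesicle genes were lower in libraries titled GFP+. Limma called 6 of the 10 lower and 0 higher at an adjusted p of 0.05 over all probe sets, namely Syn2, Syn1, Sv2b, Sv2a, Slc17a6 and Syt1. Their levels were 59.9% to 80.1% of those in libraries titled GFP-. Of all probe sets, 19.9% were called lower and 13.8% higher. The median difference of the 10 genes was -0.33, against -0.14 over all tested probe sets and -0.22 over 23 markers of mature olfactory neurons, of which 8 were called lower. The other 4 genes, Snap25, Syp, Stx1a and Vamp2, were not called as deposited, with differences from -0.30 to -0.14, of which Syp, Stx1a and Vamp2 turn positive when arrays are centred on the mature neuron markers. In bulk libraries like these, fewer cells of a type and less RNA per cell cannot be told apart.

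Both synapsins were lower in libraries titled GFP+. Syn2 in filtered air stood at 14.17, 14.31, 14.24 and 13.69 in the libraries titled GFP- of pools 1 to 4 and at 13.28, 13.63, 13.37 and 13.04 in those titled GFP+. Syn2 with isoamyl acetate stood at 13.94, 14.06, 14.01 and 14.15 and at 13.02, 13.36, 13.57 and 13.40. The groups did not overlap under either agent, and the difference over both agents was -0.74 (SE 0.11, adjusted p = 7.58e-05), or 59.9% of the level titled GFP-. Syn2 was lower in 8 of 8 pools, with pool differences between -0.45 and -0.92. It was called in each agent alone, at -0.77 (SE 0.16, adjusted p = 0.00222) in filtered air and -0.70 (SE 0.16, adjusted p = 0.00441) with isoamyl acetate.

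Syn1, the synapsin encoded on the X chromosome, had the largest standard error of the 10 genes. Syn1 in filtered air stood at 11.38, 12.06, 12.06 and 11.74 in the libraries titled GFP- of pools 1 to 4 and at 10.79, 11.50, 11.37 and 11.20 in those titled GFP+. Syn1 with isoamyl acetate stood at 11.46, 12.42, 11.70 and 10.84 and at 10.14, 11.14, 11.17 and 10.73. It was lower in 8 of 8 pools, but the pools ranged from -0.11 to -1.32, and the sorts overlapped under both agents. Its difference over both agents was -0.70 (SE 0.21, adjusted p = 0.0154), a call that centring on mature neuron markers ended (-0.44, adjusted p = 0.0916). It missed the threshold in filtered air (adjusted p = 0.184) and with isoamyl acetate (adjusted p = 0.0600). With the pool as a replicate block it was called under each agent, at adjusted p = 0.0492 and 0.0108. Whether Syn1 and Syn2 fell by different amounts was tested on the per-pool sort differences, which do not move with a constant added to a library. In pools 1 to 4 the Syn2 difference less that of Syn1 was -0.30, -0.12, -0.18 and -0.11 in filtered air. With isoamyl acetate it was 0.40, 0.58, 0.09 and -0.64. The agents were joined in the test and not tested apart. Syn2 minus Syn1 averaged -0.03 ± 0.39 (SD, n = 8 pools; exact two-sided sign-flip permutation p = 0.797, 0.797 adjusted over 2 pairs), with a 95% interval from -0.37 to 0.29.

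Of the vesicle membrane proteins, both SV2 glycoproteins were lower. Sv2b in filtered air stood at 12.29, 12.29, 12.25 and 12.46 in the libraries titled GFP- of pools 1 to 4 and at 11.82, 11.30, 11.68 and 11.95 in those titled GFP+. Sv2b with isoamyl acetate stood at 12.17, 12.34, 12.09 and 12.27 and at 11.27, 11.67, 11.67 and 11.65. No library titled GFP+ reached the lowest one titled GFP-. The difference was -0.65 (SE 0.10, adjusted p = 8.65e-05), or 63.9%, in 8 of 8 pools, and it was called in filtered air at -0.64 (SE 0.14, adjusted p = 0.00410) and with isoamyl acetate at -0.65 (SE 0.14, adjusted p = 0.00298).

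Sv2a, the SV2 form found in most neurons and the binding site of levetiracetam, was called lower over both agents and in neither alone. Sv2a in filtered air stood at 11.37, 11.02, 11.31 and 11.28 in the libraries titled GFP- of pools 1 to 4 and at 11.09, 11.02, 10.60 and 10.69 in those titled GFP+. Sv2a with isoamyl acetate stood at 11.27, 11.06, 11.31 and 11.68 and at 10.61, 10.37, 11.12 and 11.12. Filtered-air pool 2 showed almost no sort difference, at -0.01, while the largest was -0.71. Over both agents the difference was -0.46 (SE 0.13, adjusted p = 0.0127), and -0.20 (adjusted p = 0.321) with centring on mature neuron markers, which ends the call. Under filtered air it was -0.40 (SE 0.19, adjusted p = 0.160) and with isoamyl acetate -0.52 (SE 0.19, adjusted p = 0.0555), the latter called with the pool as a block (adjusted p = 0.0216). Sv2b minus Sv2a averaged -0.18 ± 0.35 (SD, n = 8 pools; exact two-sided sign-flip permutation p = 0.133, 0.266 adjusted over 2 pairs), with a 95% interval from -0.48 to 0.05, so the paralogs were not shown to differ.

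Syp, synaptophysin, had the smallest standard error of the 10 genes. Syp in filtered air stood at 17.62, 17.67, 17.78 and 17.70 in the libraries titled GFP- of pools 1 to 4 and at 17.47, 17.49, 17.54 and 17.54 in those titled GFP+. Syp with isoamyl acetate stood at 17.63, 17.72, 17.67 and 17.65 and at 17.29, 17.46, 17.56 and 17.58. All 8 libraries titled GFP- lay above all 8 titled GFP+, and Syp was lower in 8 of 8 pools, but the difference was small, -0.19 (SE 0.07, adjusted p = 0.0550), missed the threshold, and turned to 0.08 with centring on mature neuron markers. Over both agents Syp was called lower with median centring, quantile normalization, background subtraction, dim probe sets left out and eBayes with trend. With the pool as a replicate block it was not called.

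Slc17a6, the vesicular glutamate transporter of these neurons, was lower in libraries titled GFP+ in 8 of 8 pools. Slc17a6 in filtered air stood at 15.09, 15.30, 14.93 and 15.06 in the libraries titled GFP- of pools 1 to 4 and at 14.74, 14.96, 14.63 and 14.96 in those titled GFP+. Slc17a6 with isoamyl acetate stood at 15.03, 15.41, 15.01 and 15.04 and at 14.46, 15.04, 14.80 and 14.62. The sorts overlapped slightly under both agents, through the titled GFP+ libraries of filtered-air pools 2 and 4 and of isoamyl acetate pool 2. The difference over both agents was -0.33 (SE 0.10, adjusted p = 0.0216), or 79.5%, while neither agent alone passed (-0.27, adjusted p = 0.231, and -0.39, adjusted p = 0.0701). Centring on mature neuron markers ended the call, at -0.07 (adjusted p = 0.696), and the block called it with isoamyl acetate (adjusted p = 0.0206).

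The calcium sensor Syt1, synaptotagmin 1, was lower in 8 of 8 pools as deposited. Syt1 in filtered air stood at 15.57, 15.59, 15.63 and 15.74 in the libraries titled GFP- of pools 1 to 4 and at 15.33, 15.41, 15.26 and 15.41 in those titled GFP+. Syt1 with isoamyl acetate stood at 15.64, 15.50, 15.54 and 15.66 and at 15.03, 15.15, 15.30 and 15.41. The sorts did not overlap, and the pool differences ran from -0.17 to -0.61. Its difference was -0.32 (SE 0.08, adjusted p = 0.00451) over both agents, and -0.06 (adjusted p = 0.688) with centring on mature neuron markers, which ends the call. It was -0.36 (SE 0.11, adjusted p = 0.0267) with isoamyl acetate and -0.28 (SE 0.11, adjusted p = 0.0956) in filtered air. The isoamyl acetate call was lost in 4 of the 16 fits that left out 1 library, among them the fit without the titled GFP+ library of pool 1.

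None of the 3 SNARE genes was called over both agents. Vamp2 in filtered air stood at 15.07, 15.17, 15.61 and 15.59 in the libraries titled GFP- of pools 1 to 4 and at 14.92, 15.30, 15.44 and 15.40 in those titled GFP+. Vamp2 with isoamyl acetate stood at 14.81, 15.28, 15.36 and 15.06 and at 14.18, 14.83, 15.49 and 15.27. Vamp2, the vesicle SNARE, was thus lower in 5 of 8 pools and higher in 3, with overlapping groups and a difference of -0.14 (SE 0.17, adjusted p = 0.531) that turned to 0.12 with centring on mature neuron markers. Snap25 in filtered air stood at 16.54, 16.79, 16.93 and 16.98 in the libraries titled GFP- of pools 1 to 4 and at 16.34, 16.29, 16.72 and 16.70 in those titled GFP+. Snap25 with isoamyl acetate stood at 16.47, 16.95, 16.89 and 16.74 and at 15.80, 16.55, 16.74 and 16.79. Snap25, the membrane SNARE that pairs with it, was lower in 7 of 8 pools, at -0.30 (SE 0.14, adjusted p = 0.111), and was called with the pool as a replicate block (adjusted p = 0.0282).

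Stx1a, the syntaxin of the complex, had the lowest signal of the 10. Stx1a in filtered air stood at 9.57, 9.74, 9.69 and 10.10 in the libraries titled GFP- of pools 1 to 4 and at 9.59, 9.06, 9.69 and 9.84 in those titled GFP+. Stx1a with isoamyl acetate stood at 9.61, 9.87, 10.01 and 9.94 and at 9.31, 9.62, 9.92 and 9.94. It was lower in 5 of 8 pools, with a difference of -0.19 (SE 0.13, adjusted p = 0.258), a 95% interval from -0.47 to 0.08, and 0.07 with centring on mature neuron markers. For Vamp2 the interval ran from -0.49 to 0.21, so a difference as large as the -0.46 of Sv2a lies within both intervals.

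**Figure D2:**
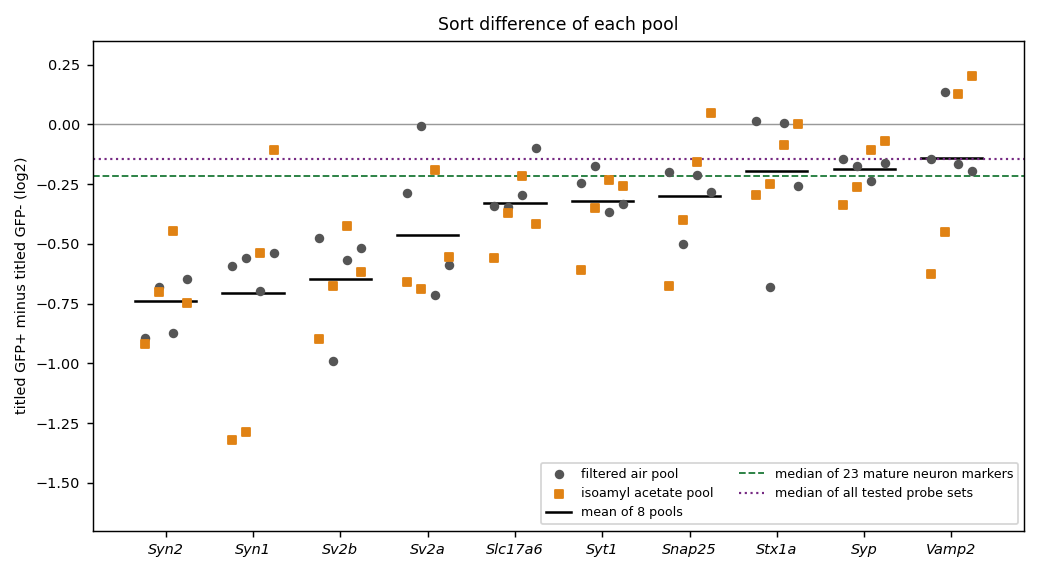
Sort difference (titled GFP+ minus titled GFP-, log2) of each gene in each of the 8 pools, with grey circles for filtered air, orange squares for isoamyl acetate, black bars for the mean of 8 pools, and lines for the median of 23 mature neuron markers (-0.22) and of all tested probe sets (-0.14). As deposited, Syn1, Syn2, Sv2a, Sv2b, Slc17a6, Syt1 and Syp lie below 0 in every pool and Vamp2 above 0 in 3, while after centring on the mean of those markers Syp is below 0 in 0 pools.

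Counted by pool, 7 of the 10 genes were lower in the library titled GFP+ in all 8 pools, as were 15.1% of all tested probe sets and 14 of the 23 mature neuron markers. Groups of 8 did not overlap for 4 of the 10, Syn2, Sv2b, Syt1 and Syp, against 3.66% of all probe sets and 6 of the 23 markers. The same 4 were without overlap in filtered air alone and with isoamyl acetate alone, as were 12.0% and 11.3% of all probe sets. In filtered air alone limma called 2 lower (Syn2 and Sv2b), where 7.16% of all probe sets were called lower. With isoamyl acetate alone it called 3 (Syn2, Sv2b and Syt1), where 9.86% were. The pool as a replicate block raised these to 3 and 6, with 10.2% and 14.2% of all probe sets called lower, and the 6 over both agents to 7, with 25.3%.

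How low the vesicle genes stand depends on how arrays are scaled. Libraries titled GFP+ had a higher array median (6.79 to 6.90, against 6.42 to 6.52) and a lower mean of mature neuron markers (15.43 to 15.82, against 15.91 to 16.03). Centring arrays on their medians moved the median sort difference of all probe sets from -0.14 to -0.51 and called 10 of the 10 genes lower, with 76.9% of all probe sets, and 9 in either agent alone, with 62.5% (filtered air) and 61.6% (isoamyl acetate). Centring on the 23 mature neuron markers moved that median to 0.12 and left 2 called, Syn2 at -0.47 (SE 0.10, adjusted p = 0.00131) and Sv2b at -0.38 (SE 0.10, adjusted p = 0.0103), with 3.91% of all probe sets called lower. In single agents that centring left 1 in filtered air (Syn2) and 0 with isoamyl acetate, where 2.59% and 2.75% of all probe sets were called lower. The calls of Syn1, Sv2a, Slc17a6 and Syt1 were lost, Snap25 stood at -0.03, and Vamp2, Syp and Stx1a turned to 0.12, 0.08 and 0.07, none of them called. Relative to the mean of these markers Syn2 and Sv2b were still lower in 8 of 8 pools, and Syp in 0 of 8. The centring used that mean, and the marker differences ran from -0.97 to 0.34 as deposited. Omp, 1 of the markers, differed by -0.19 (SE 0.08, limma adjusted p = 0.0677), and Syp by -0.19. Quantile normalization kept all 10 below 0 and called 7, adding Syp, with 26.6% of all probe sets called lower. With a trended, robust spread the isoamyl acetate count was 6, with 9.93% of all probe sets. Over all probe sets, 4417 were called lower and 3074 higher as deposited, 17072 and 2120 with median centring, and 868 and 4955 with marker centring.

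**Figure D3:**
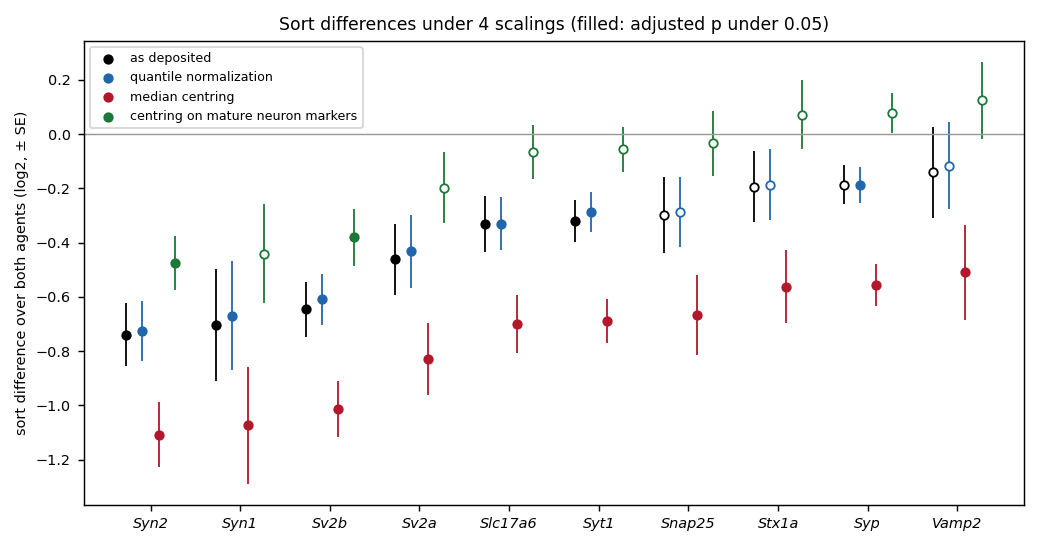
Sort difference over both agents (log2) of each gene under 4 scalings of the arrays, with bars of 1 standard error and filled points for an adjusted p under 0.05. All 10 genes are called under median centring, and Syn2 and Sv2b alone under centring on mature neuron markers.

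The differences had no simple order by signal. The 4 genes with a mean signal of 15 or more, Syp, Snap25, Syt1 and Vamp2, had a median difference of -0.24, and the 6 dimmer ones of -0.55, but the dimmest, Stx1a, stood at -0.19. The boundary of 15 was set after the values were seen, and Slc17a6 lies just under it. Among the 23 mature neuron markers the median was -0.20 for the 18 at 15 or more and -0.31 for the other 5, which ranged from -0.97 to 0.34. No test was made of these medians.

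Markers of several other cell types moved with the sort, in the opposite direction to the vesicle genes. Called higher in libraries titled GFP+ were 8 of 8 neutrophil, 7 of 7 macrophage, 6 of 6 lymphocyte, 2 of 2 erythroid, 7 of 7 microvillar cell, 7 of 9 sustentacular and 7 of 7 progenitor and cell cycle genes, and 8 of 14 immature neuron genes. Of these, Neurog1 and Cdk1 (progenitor and cell cycle), Chat (microvillar) and Cd3g (lymphocyte) were above the negative control median in 0 of 8 libraries of either sort, and with dim probe sets left out the counts were 5, 6 and 5. A single gene was called higher in each of the lists of 4 horizontal basal, 5 ensheathing glia, 4 endothelial and 4 fibroblast markers. Of 5 neuroendocrine secretory granule genes, 3 were lower. All these counts stand against 13.8% of all probe sets called higher and 19.9% called lower. In lists of 4 or 5 genes, a lone higher call is too few to set apart from the 13.8%. The horizontal basal gene, Icam1, and Resp18 of the neuroendocrine list were likewise not above that median in any library. These 6 were named after their values were seen. S100a8 and S100a9, neutrophil granule proteins, differed by 9.02 (SE 0.31) and 8.95 (SE 0.28), and the sustentacular enzymes Cyp2g1 and Cyp2a5 by 2.15 (SE 0.20) and 2.65 (SE 0.25). The summed signal of the neutrophil list was 18.61 to 19.71 in libraries titled GFP+ and 9.21 to 11.36 in those titled GFP-, and that of the sustentacular list 15.36 to 17.26 and 13.27 to 14.45. The summed signal of the mature neuron list was 21.23 to 21.57 and 21.62 to 21.73. None of the 6 lymphocyte genes was above the median negative control in a library titled GFP-. The part of these cells in the vesicle gene differences was not tested.

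The wider presynaptic machinery was read from 9 lists by role, with 117 of 125 listed genes measured. Limma called 26 lower and 9 higher in libraries titled GFP+ over both agents, with a median of -0.15 against -0.14 for all probe sets. These counts and those by role stand against 19.9% of all probe sets called lower and 13.8% called higher. Among other vesicle membrane and Rab3 genes 4 of 16 were lower and 4 higher. The higher calls fell to 2 under both median centring and quantile normalization. Of all 22206 probe sets, 2120 and 2944 were then called higher. Syngr1, synaptogyrin 1 of neuronal vesicles, was lower at -1.20 (SE 0.10), while its widely expressed relative Syngr2 was higher at 3.26 (SE 0.17) and the secretory GTPase Rab27b at 1.11 (SE 0.15). Of 13 other synaptotagmins and Doc2 calcium sensors 5 were lower and 0 higher, led by Syt4 at -1.19 (SE 0.13), Syt10 at -0.65 (SE 0.12) and Syt9 at -0.51 (SE 0.16). Another of these 5, Syt13, was above the negative control median in 0 of 8 libraries of either sort.

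Of 11 SNARE genes outside the 10, 2 were called higher and 0 lower, where 13.8% of all probe sets were called higher, and 7 of the 11 were below 0 with a median of -0.06. Snap23, the relative of Snap25 used for secretion outside neurons, was higher at 2.18 (SE 0.17), and Vamp8, a SNARE of granule release in leukocytes, was at least 2.12-fold higher, since it was not above the negative control median in any of the 8 libraries titled GFP-. Among 10 SNARE regulators, Stxbp2, the Munc18 form of leukocytes and epithelia, was higher at 3.89 (SE 0.24), whereas 2 were lower, the SNARE-recycling ATPase Nsf at -0.61 (SE 0.15) and the complexin Cplx2 at -0.51 (SE 0.10). The neutrophil and macrophage markers above were higher in the same libraries as Snap23, Vamp8, Stxbp2 and Syngr2, and their part in these differences was not tested.

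The counts of the remaining roles stand against 19.9% of all probe sets called lower and a median of -0.14, and apart from the proton pump they lie near or below that share. Of 12 subunits and partners of the proton pump that energises transmitter loading, whose median was -0.22, 6 were lower and 0 higher, led by the neuronal subunit Atp6v1g2 at -0.85 (SE 0.11), then Atp6v1d at -0.33 (SE 0.08) and Atp6v1a at -0.30 (SE 0.08). Of 22 endocytosis genes, whose median was -0.09, 4 were lower and 1 higher, with neuronal dynamin Dnm1 at -0.47 (SE 0.12), auxilin Dnajc6 at -0.34 (SE 0.09) and the ubiquitous dynamin Dnm2 at 0.48 (SE 0.09). In the active zone list, with a median of -0.15, 1 of 14 was lower, the liprin Ppfia2 at -0.40 (SE 0.10). Of 11 terminal channels and receptors, with a median of -0.17, 2 were lower, the dopamine receptor Drd2 at -0.30 (SE 0.08) and the GABA-B subunit Gabbr2 at -0.27 (SE 0.09), both of which restrain release from olfactory nerve terminals. Of 8 other vesicular transporters, whose median was -0.14, 2 were lower and 1 higher. Slc6a17 was lower at -0.84 (SE 0.14), Slc18a1 was not above the negative control median in any library, and Slc17a9 was above it in 6 of 8 libraries titled GFP+ and 0 of 8 titled GFP-. Centring on mature neuron markers left 5 of the 117 lower and 28 higher and turned the median of the 117 to 0.12. Of all 22206 probe sets, 868 (3.91%) were then lower and 4955 higher, also with a median of 0.12. That centring ended the calls of Nsf at -0.35 (adjusted p = 0.0635), Cplx2 at -0.24 (0.0799), Syt9 at -0.24 (0.229), Dnm1 at -0.21 (0.147) and Ppfia2 at -0.13 (0.462). It also ended those of Dnajc6 at -0.08 (0.613), Atp6v1d at -0.06 (0.695), Atp6v1a at -0.04 (0.778), Drd2 at -0.03 (0.819) and Gabbr2 at -0.0061 (0.971), and of Slc18a1. Among the genes named, median centring ended the call of Dnm2, at 0.11 (0.252).

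**Figure D4:**
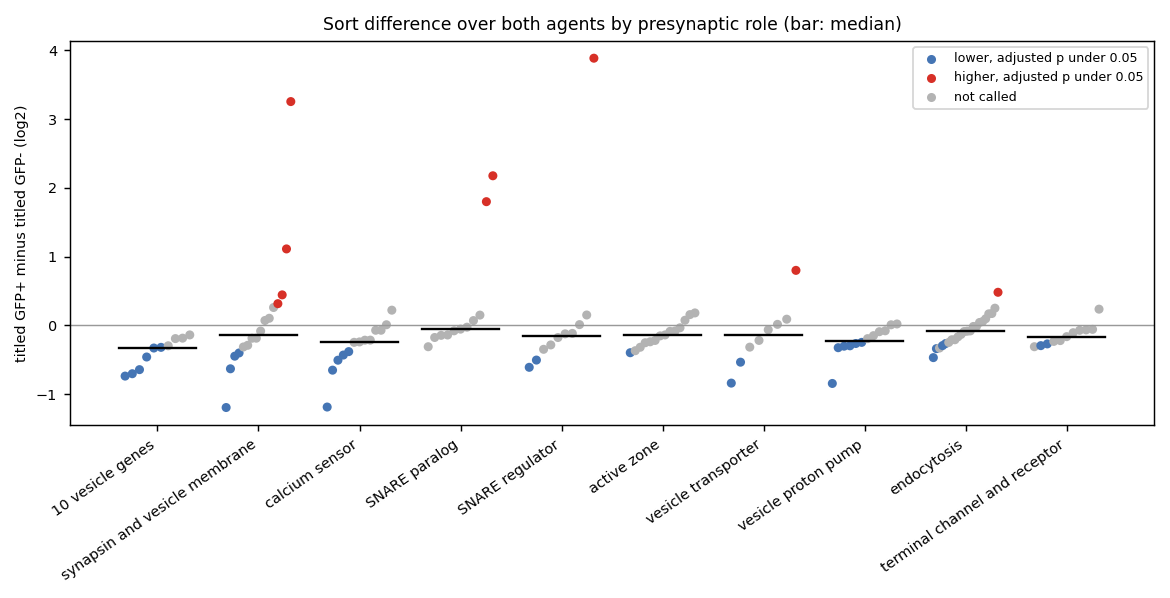
Sort difference over both agents (titled GFP+ minus titled GFP-, log2) of the 10 vesicle genes and of 117 other presynaptic genes by role, as deposited (the medians of all 9 role lists are above 0 with marker centring), with blue for called lower, red for called higher, grey for not called and bars for medians. Stxbp2, Syngr2 and Snap23 stand highest, at 3.89, 3.26 and 2.18, and the plotted value of Vamp8, 1.80, rests on libraries titled GFP- that were not above the negative control median.

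Odor exposure was not seen to change the vesicle genes. Between isoamyl acetate and filtered air limma called 0 of the 10 in either sort, with 0 at an unadjusted p under 0.05 in both, where 0.0180% of all probe sets were called in libraries titled GFP- and 0.00901% in those titled GFP+. In libraries titled GFP- the differences ran from -0.23 for Vamp2 to 0.08 for Sv2a, with a median of -0.05. Syn2 differed by -0.06 (95% interval -0.40 to 0.28), and Syp, with the narrowest interval, by -0.02 (-0.24 to 0.19).

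In libraries titled GFP+ the odor differences ran from -0.42 for Syn1 (95% interval -1.04 to 0.20, adjusted p = 0.968) to 0.15 for Stx1a (-0.24 to 0.54). Vamp2 followed Syn1 at -0.32 (adjusted p = 0.968). Without the titled GFP+ library of isoamyl acetate pool 1, Syn1 stood at -0.20 and Vamp2 at -0.07. That library was the lowest of its group of 4 in 9 of the 10 genes, it had the lowest mean of mature neuron markers of all 16 libraries, at 15.43, and the highest neutrophil and sustentacular sums, at 19.71 and 17.26. The part of those cells in its low values was not tested. Without it the 6 genes called over both agents stayed called, and the count with isoamyl acetate alone went from 3 to 2. The sort difference did not change detectably with odor, as limma's interaction called 0 of 10 (0 at an unadjusted p under 0.05, and 0.00450% of all probe sets called), with estimates from -0.22 for Syn1 to 0.07 for Stx1a and 95% intervals that reach from -1.09 to 0.66 for Syn1.

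**Figure D5:**
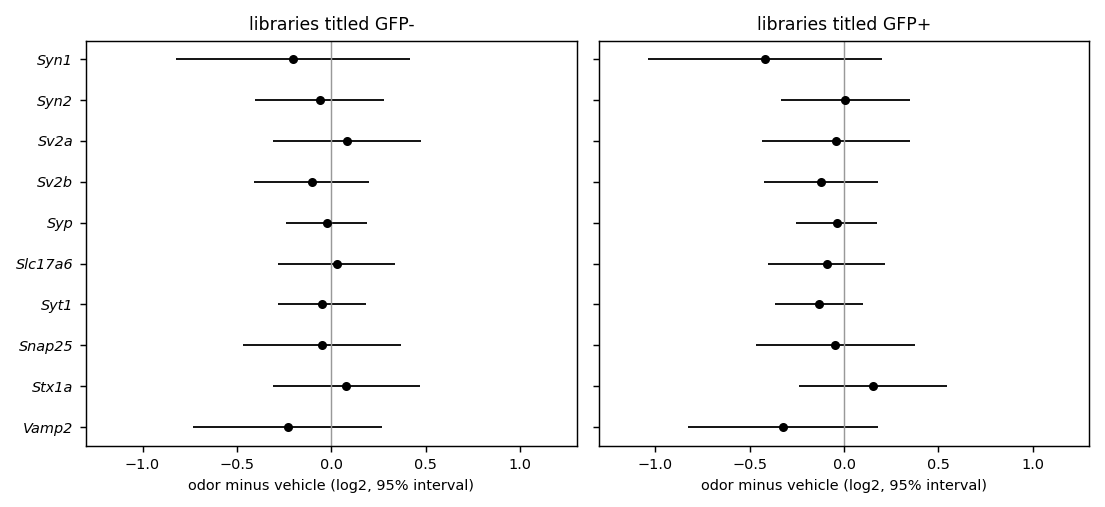
Isoamyl acetate minus filtered air (log2) for each of the 10 genes in libraries titled GFP- (left) and titled GFP+ (right), with points for limma's estimates and bars for 95% intervals. Every interval includes 0, from Syn1 at -0.42 to Stx1a at 0.15 in libraries titled GFP+.

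Among themselves the 10 genes varied together across the 16 libraries, which share sort, pool and array scaling. All 45 pairwise Pearson correlations were above 0 as deposited, with a median of 0.64. Once the mean of mature neuron markers was taken from each library, 25 of 45 were above 0, with a median of 0.04. Within groups, 39 of 45 were above 0, with a median of 0.32. Those values include the isoamyl acetate library titled GFP+ of pool 1, the lowest of its group in 9 of the 10 genes. Its part in them was not tested, and no correlations of other gene pairs stand beside them. Of 18278 named genes outside the lists, the 5 whose 16 values followed the mean profile of the vesicle genes most closely were the amino acid transporter Slc7a8 (r = 0.96), Cend1 (r = 0.96), the NAD-synthesising enzyme Nmnat2 (r = 0.95), Zbtb4 (r = 0.95) and the succinate dehydrogenase subunit Sdhc (r = 0.95). Nearest to single genes were Ids for Syn1 (r = 0.96), Tshz2 for Syn2 (r = 0.95), Cbwd1 for Sv2a (r = 0.91), Aplp1 for Snap25 (r = 0.96), Ubl7 for Vamp2 (r = 0.96) and Zfp39 for Stx1a (r = 0.91). For Sv2b, Syt1, Slc17a6 and Syp the nearest genes were odorant receptors, Olfr648 (r = 0.96), Olfr920 (r = 0.95), Olfr1410 (r = 0.95) and Olfr1156 (r = 0.97). The sort difference of those 4 receptors ran from -2.28 for Olfr648 to -1.52 for Olfr1410, several times that of the vesicle gene beside each. All these neighbours were picked for the highest r among 18278 candidates, over libraries that include the sort split. Whether they follow the vesicle genes within groups was not tested.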

How the data were processed

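Biotinylated cRNA from 50 to 100 ng of sorted-cell RNA went onto Clariom S arrays, per the labels' protocols. Each array has 1 deposited log2 signal for a probe set. The submitters' processing notes name Affymetrix Expression Console. The normalization it applied was not given in the sources used here. Of 28846 probe sets, 6640 are controls (5222 negative), which left 22206. The platform annotation named 19572 of these and left 2634 unnamed. Precision is limited by the number of arrays.

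Groups and pools come from the sample titles. Limma 3.58.1 in R 4.3.3 was fitted on 4 group means of all 16 arrays (12 residual degrees of freedom, prior 4.49), with Benjamini-Hochberg adjustment over 22206 probe sets and a threshold of 0.05. The main fit has no block. Libraries with 1 pool number share mice, and within each agent their deviations from group means correlated at 0.16 to 0.40 (median 0.20), so the block result stands beside the values it changes. Paralog pairs were compared by an exact sign-flip test over pools, whose smallest p is 0.00781. Each test was checked on simulated data.

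The 10 genes and the lists were chosen with earlier results of these data known. Named are the 10 genes, S100a5, Omp, up to 3 called genes of each role list with the largest differences, the first 2 of the neutrophil and sustentacular lists, and the genes nearest in profile. Syt13 was named after its values were seen. Vamp8's bound takes the negative control median as the floor. Alternatives were scaling, background subtraction with an offset of 50, leaving out probe sets not above the negative control median in at least 4 arrays, eBayes with trend, the replicate block and leaving out libraries. Each of the 10 genes has 1 row, so the lowest-row alternative was void.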

Additional observations from a re-analysis of the deposited data

Results flagged for a closer look

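Of the 40 sets of 4 values (10 genes in 4 groups), 2 held a library far from the other 3, and chance gives about 1 in 20. Sv2b stood at 11.27 in the isoamyl acetate library titled GFP+ of pool 1, against 11.65 to 11.67 in the others of its group. Slc17a6 stood at 15.41 in the isoamyl acetate library titled GFP- of pool 2, against 15.01 to 15.04.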

How the results depend on the processing

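The number of genes called in the sort comparisons depended on scaling and on how the spread is estimated. Median centring gave 9 of 10 in filtered air, 9 with isoamyl acetate and 10 over both agents, where the deposited values gave 2, 3 and 6, and centring on mature neuron markers gave 1, 0 and 2. With isoamyl acetate alone, eBayes with trend gave 6, the replicate block (pairing the libraries of a pool) 6, and leaving out 1 library 2 to 5, the 5 without the titled GFP+ library of pool 3. Leaving out 1 library gave 2 in filtered air and 6 to 7 over both agents. The block moved no other count by more than 1.5 times. Odor and filtered-air libraries of the same sort and number also correlated, at 0.07 to 0.41 (median 0.23, against -0.10 for other numbers), though they come from different mice. With that number as a replicate block 0 of 10 were called for odor in either sort. The main odor fit and the sign-flip tests treat the 8 pools as independent. For odor and for the interaction 0 of 10 were called under every alternative run.

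Signs turned under centring on mature neuron markers for Vamp2 (0.14 in filtered air, 0.11 with isoamyl acetate, 0.12 over both), Stx1a (0.0015, 0.14 and 0.0711), Syp (0.0514, 0.10 and 0.0775) and Snap25 with isoamyl acetate (0.0011). Vamp2 also turned without the titled GFP+ library of pool 1, to 0.0216 in filtered air (lowest -0.19) and 0.067 with isoamyl acetate (lowest -0.37). Syn2 minus Syn1 ranged from -0.12 to 0.0522 with 1 pool left out, turning to 0.0522 without isoamyl acetate pool 4 and to 0.0038 without filtered-air pool 1, and Sv2b minus Sv2a from -0.23 to -0.07. The cause of these changes was not tested.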
